A study of Homo sapiens with 12 samples.

Results

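The genes described here are 10 receptors of the TNF receptor superfamily, found by their symbols among the 58381 genes of the count table and of the FPKM table. They are TNFRSF1A, TNFRSF1B and LTBR, the death receptors FAS, TNFRSF10A and TNFRSF10B, and the receptors known mainly from lymphocytes, TNFRSF4 (OX40), TNFRSF8 (CD30), TNFRSF9 (4-1BB) and TNFRSF18 (GITR). Of these 10, 8 had enough counts to be tested. TNFRSF8 and TNFRSF18 did not, and only their levels are given.

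RNA was sequenced from 12 samples of the human mast cell leukaemia line HMC-1, which form 4 groups of 3 libraries. HMC-1.1 carries the KIT variant V560G, and HMC-1.2 carries V560G together with D816V. HMC-1.3 clone 1 and HMC-1.3 clone 2 carry D816V alone, and each is 1 clone picked after V560G had been repaired in HMC-1.2 by CRISPR/Cas9. No group was treated, and all are variants of the same leukaemia line, so an HMC-1.3 group shows the edit together with whatever else sets its founding cell apart.

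Receptors of this superfamily are membrane proteins with cysteine-rich domains that bind trimeric ligands. Death receptors carry a cytoplasmic death domain that can recruit FADD and caspase-8, whereas most other members recruit TRAF adaptors and activate NF-κB. In mast cells the superfamily is known for responses to TNF, a cytokine that mast cells themselves make, and CD30 is known from neoplastic mast cells in systemic mastocytosis.

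Total expected counts ran from 29225900 to 43181402 per library. The mast cell genes KIT (346 to 469 FPKM), GATA2 (212 to 247 FPKM) and HDC (814 to 1037 FPKM) were abundant in every library. HDC makes histamine. Of the other markers on the list of 11, CMA1 (mast cell chymase) was at 4 counts or fewer in all libraries. The IgE receptor genes MS4A2 and FCER1A did not exceed 0.45 and 1.27 FPKM. The tryptase gene TPSAB1 was the marker that moved most with the groups, at 573 to 607 FPKM in HMC-1.2 and 27.6 to 45.2 FPKM in the other libraries. CPA3 went the other way, with 3.04 to 11.3 FPKM over all libraries and its lowest mean CPM in HMC-1.2. The summed level of 9 lymphocyte markers ran from 2.26 to 3.8 FPKM over the libraries. Of these, TRAC had 44 to 69 counts (1.59 to 2.7 FPKM), and CD79A and NKG7 reached 22 and 13 counts. CD8A was at 0 counts throughout, and CD3D, CD3E and CD3G had at most 3 counts in any library. The summed level of 6 monocyte markers ran from 15.3 to 22.6 FPKM and was mostly ITGAM. LYZ had 69 to 120 counts (1.53 to 2.43 FPKM), while FCN1 was at 0 counts and CD14 at 5 or fewer. One library stood apart: HMC-1.3 clone 2 replicate 3 had 20 genes at over 10 times their level in every other library, among them KRT8 (459 counts, at most 13 elsewhere) and KRT18 (429 counts, at most 4 elsewhere). The summed level of 8 stromal and epithelial markers was 15.1 FPKM in it and 0.21 to 1.28 FPKM in the other libraries. The part of this difference in the results below was not tested, and values without that library are given where a call changes.

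Both HMC-1.3 clones and HMC-1.1 had less TNFRSF1B and TNFRSF4 and more FAS than HMC-1.2. Changed here means more than 1.5-fold apart with an adjusted p below 0.05, from the quasi-likelihood test of edgeR adjusted by the Benjamini-Hochberg method. In clone 1, 5 of the 8 tested receptors changed, 2 higher and 3 lower, where 11.8% of the 15944 tested genes were called higher and 8.18% lower. In clone 2, 3 of 8 changed, 1 higher and 2 lower, against 7.98% of all tested genes higher and 8.51% lower. In HMC-1.1, 5 of 8 changed, 1 higher and 4 lower, against 10.1% higher and 7.52% lower. Over these 8 the median log2 fold change came to -0.26 for clone 1, -0.10 for clone 2 and -0.54 for HMC-1.1, beside 0.01, 0 and 0.01 over all tested genes. These 3 comparisons share the HMC-1.2 libraries, so they are not independent of each other. P-values rest on the spread between libraries of the same group, estimated over all 12 libraries together. The study plated each line in triplicate wells, so this is a spread between parallel wells and may be largely technical. In bulk RNA, fewer expressing cells and less RNA per cell cannot be told apart.

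**Figure D1:**
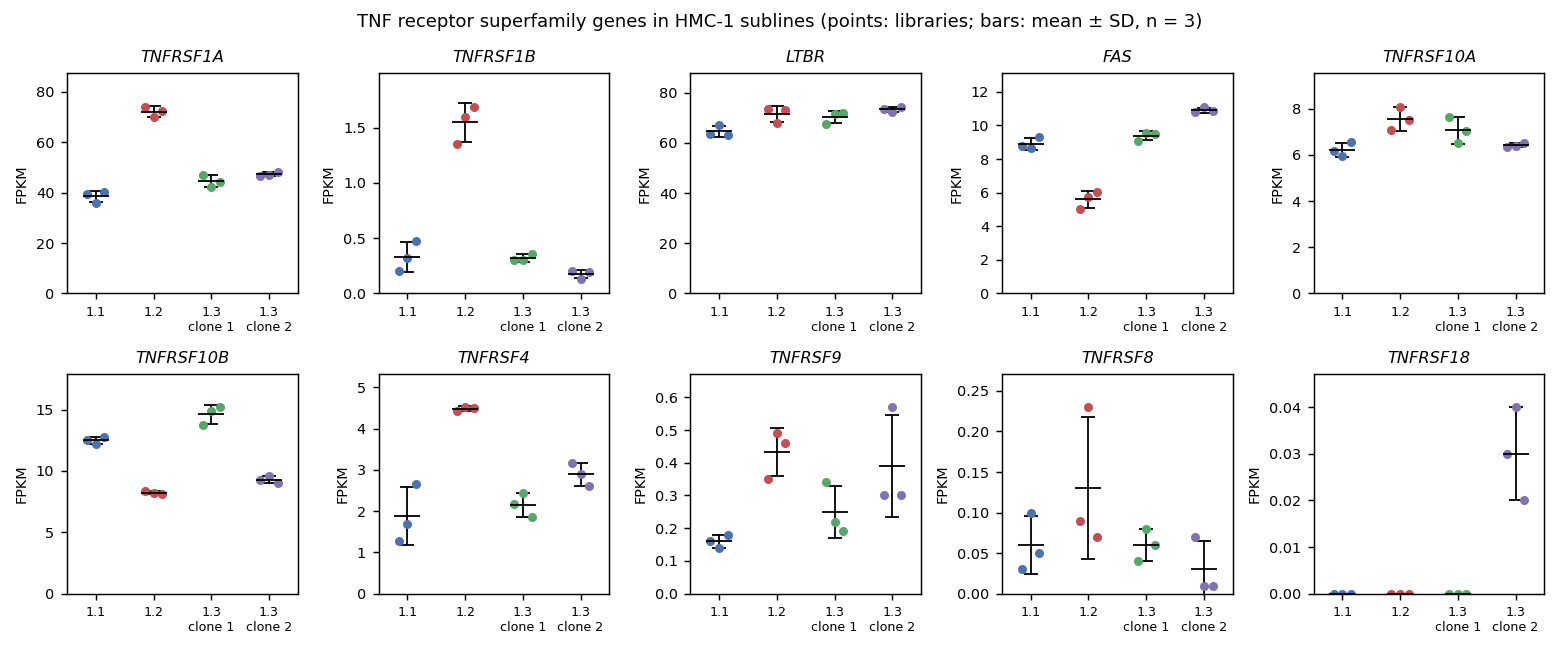
FPKM of the 10 receptor genes (vertical axes, linear, each with its own range from 0) in the 4 groups of HMC-1 cells. Points are libraries and black bars are the mean ± SD (n = 3). TNFRSF1A and TNFRSF1B have all 3 HMC-1.2 libraries above the other 9, and FAS has them below the other 9.

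**Figure D2:**
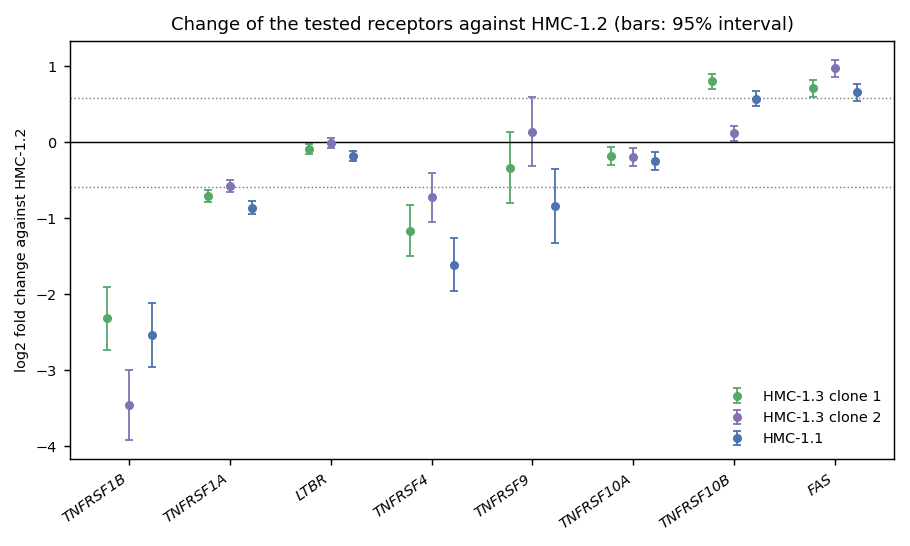
Log2 fold change against HMC-1.2 (vertical axis) of the 8 tested receptors for each HMC-1.3 clone and for HMC-1.1, with 95% intervals as bars and dotted lines at 1.5-fold. TNFRSF1B lies at -2.32, -3.46 and -2.53, while LTBR lies within 0.18 of 0.

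For 4 of the receptors that changed in some comparison with HMC-1.2, the DNA just before the RefSeq transcription start is shown. TNFRSF10B, which also changed, is not shown. The windows are from RefSeq (GRCh38.p14), which was matched by symbol for 7 receptors here and had no entry for TNFRSF4. Each line is 250 bases on the strand of the gene, ending at the base before the start. Capitals mark matches, on either strand, to the AP-1 letters TGANTCA or the NF-κB letters GGGNNTTTC.
TNFRSF1B (chr1:12166741-12166990, plus strand): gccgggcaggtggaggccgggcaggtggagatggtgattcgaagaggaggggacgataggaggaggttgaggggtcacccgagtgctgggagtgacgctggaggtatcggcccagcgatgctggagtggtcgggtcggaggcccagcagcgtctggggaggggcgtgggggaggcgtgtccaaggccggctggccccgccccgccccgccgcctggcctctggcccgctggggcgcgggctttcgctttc
TNFRSF1A (chr12:6342077-6342326, minus strand): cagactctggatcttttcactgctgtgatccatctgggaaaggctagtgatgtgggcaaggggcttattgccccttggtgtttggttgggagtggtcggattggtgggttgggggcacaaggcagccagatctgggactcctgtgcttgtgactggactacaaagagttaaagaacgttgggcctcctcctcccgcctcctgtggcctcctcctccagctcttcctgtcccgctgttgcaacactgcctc
FAS (chr10:88990548-88990797, plus strand, the first of 3 starts listed): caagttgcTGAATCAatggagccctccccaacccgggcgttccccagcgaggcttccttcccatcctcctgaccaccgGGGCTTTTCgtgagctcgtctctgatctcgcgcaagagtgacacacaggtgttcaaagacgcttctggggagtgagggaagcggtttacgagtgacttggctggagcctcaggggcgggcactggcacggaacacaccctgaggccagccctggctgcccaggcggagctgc
TNFRSF9 (chr1:7940840-7941089, minus strand): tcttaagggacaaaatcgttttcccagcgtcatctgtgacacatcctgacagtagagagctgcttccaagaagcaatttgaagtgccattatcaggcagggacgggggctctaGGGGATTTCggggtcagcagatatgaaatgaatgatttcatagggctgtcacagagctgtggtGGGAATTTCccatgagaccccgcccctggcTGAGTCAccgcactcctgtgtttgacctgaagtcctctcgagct

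The FAS window held 1 AP-1 match at position -242 and 1 NF-κB match at -172, counted from the start. The TNFRSF9 window held 2 NF-κB matches at -137 and -74 and 1 AP-1 match at -44. Neither set of letters occurred in the TNFRSF1A or TNFRSF1B window. Of 35116 promoter windows of this length, 6.57% held the AP-1 letters and 4.16% the NF-κB letters. The GATA letters AGATAA, present in 9.17% of windows, were in none of these 4. The GC box GGGCGG, present in 42.6%, had 2 matches before TNFRSF1B, 1 before FAS, 1 before TNFRSF9 and 0 before TNFRSF1A, and G and C made up 72.4%, 62.8%, 51.6% and 56.8% of these windows in that order. A match is a string of letters and not a shown binding site.

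TNFRSF1B, the second receptor for TNF, which lacks a death domain, had the largest fold differences from HMC-1.2 among the 8 tested receptors. In HMC-1.2 its FPKM was 1.35, 1.6 and 1.69. It was 0.2, 0.32 and 0.47 in HMC-1.1, 0.3, 0.3 and 0.36 in clone 1, and 0.2, 0.13 and 0.19 in clone 2. Every HMC-1.2 library was thus above every other library. TNFRSF1B fell by 2.32 on the log2 scale in clone 1 (SE 0.20, 4.99-fold lower, edgeR adjusted p = 2.1e-08), was 11-fold lower in clone 2 (log2 -3.46, SE 0.22, adjusted p = 5.31e-10) and 5.79-fold lower in HMC-1.1 (log2 -2.53, SE 0.20, adjusted p = 1.04e-08). These values rest on 168 to 171 counts in HMC-1.2 and 12 to 42 counts elsewhere. The gene spans chr1:12166991-12209228 on the plus strand in GRCh38.

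The HMC-1.3 clones also differed from each other in TNFRSF1B. In CPM, counts scaled for library size but not for length, clone 1 had 1.02, 1.01 and 1.19 and clone 2 had 0.351, 0.436 and 0.647. The ranges did not overlap, and TNFRSF1B was 2.2-fold higher in clone 1 (log2 1.14, SE 0.25, edgeR adjusted p = 0.00107). The highest clone 2 value, 28 counts, came from the library that stood apart, and without it the log2 difference between the clones was 1.43. On log2(FPKM + 1), a scale that shrinks differences of low genes, limma gave 0.17, which was not called. On log2(FPKM + 0.1) limma gave 0.63, past 1.5-fold, and this was not called either (adjusted p = 0.0868). Clone 2 was also lower than HMC-1.1 in edgeR (log2 -0.93, SE 0.26, adjusted p = 0.00891). Limma called this neither on log2(FPKM + 1) (adjusted p = 0.188) nor on log2(FPKM + 0.1) (adjusted p = 0.124). Clone 1 and HMC-1.1 overlapped, with an interval for their log2 difference of -0.27 to 0.70. By mean CPM the order was HMC-1.2, clone 1, HMC-1.1 and clone 2, and of the neighbours in it clone 1 and HMC-1.1 did not differ beyond their spread.

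TNFRSF1A, the first TNF receptor, which carries a death domain, was the most abundant of the 10 receptors in HMC-1.2 together with LTBR. Its FPKM was 74.1, 69.9 and 72.4 in HMC-1.2, 39.5, 35.9 and 40.2 in HMC-1.1, 47.0, 42.1 and 44.2 in clone 1, and 46.6, 47.2 and 48.3 in clone 2. The 3 HMC-1.2 libraries were above all others, and the remaining 9 lay within a narrow band. TNFRSF1A was 1.63-fold lower in clone 1 (log2 -0.71, SE 0.04, edgeR adjusted p = 7.76e-11) and 1.81-fold lower in HMC-1.1 (log2 -0.86, SE 0.04, adjusted p = 7.73e-12). In clone 2 the ratio was 1.49 (log2 -0.58, SE 0.04, adjusted p = 1.18e-09), which is just under the fold required for a call. Without clone 2 replicate 3 the log2 difference was -0.59 and was called, as it was at -0.60 without HMC-1.2 replicate 3. It was also called with upper quartile scaling (-0.59) and in limma on log2(FPKM + 1) and log2(FPKM + 0.1) (-0.60 and -0.61). Clone 1 and clone 2 differed from each other by -0.13 on the log2 scale (SE 0.04, adjusted p = 0.0109), which is below the required fold. TNFRSF1A lies at chr12:6328757-6342114 on the minus strand.

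LTBR, the receptor for lymphotoxin heterotrimers, starts 32.9 kb beyond TNFRSF1A, with no tested gene starting between them, and varied little. Its FPKM was 73.6, 68.0 and 73.0 in HMC-1.2, 63.4, 67.1 and 63.4 in HMC-1.1, 67.4, 71.4 and 71.8 in clone 1, and 73.7, 72.3 and 74.4 in clone 2. In FPKM the HMC-1.1 libraries were below all others, HMC-1.2 overlapped both clones, and clone 1 was just below clone 2. In CPM HMC-1.2 overlapped clone 2 only, and clone 1 was below HMC-1.2 without overlap (edgeR adjusted p = 0.0197). Against HMC-1.2 the log2 difference had an interval of -0.15 to -0.02 for clone 1, -0.07 to 0.06 for clone 2 and -0.24 to -0.12 for HMC-1.1, all inside the 1.5-fold limit. The largest ratio between group means in CPM was 1.13. LTBR lies at chr12:6375045-6391571 on the plus strand.

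FAS, the receptor for FAS ligand and a death receptor, was higher in all 3 groups than in HMC-1.2. Its FPKM was 5.05, 5.76 and 6.02 in HMC-1.2, 8.77, 8.63 and 9.29 in HMC-1.1, 9.1, 9.58 and 9.5 in clone 1, and 10.8, 11.1 and 10.9 in clone 2. The HMC-1.2 libraries were the lowest and the clone 2 libraries the highest, with no overlap. FAS rose by 0.71 on the log2 scale in clone 1 (SE 0.05, 1.64-fold, edgeR adjusted p = 5.44e-09), by 0.98 in clone 2 (SE 0.05, 1.97-fold, adjusted p = 7.67e-11) and by 0.66 in HMC-1.1 (SE 0.05, 1.58-fold, adjusted p = 1.89e-08). In the order clone 2, clone 1, HMC-1.1 and HMC-1.2, clone 1 and HMC-1.1 overlapped in FPKM. In CPM the clone 1 libraries were above those of HMC-1.1, but the difference did not pass the test (log2 0.05, interval -0.05 to 0.16). Clone 1 was below clone 2 by a log2 difference of -0.26 (SE 0.05, adjusted p = 0.000283), a ratio of 1.2 that is under the fold for a call.

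The annotated span of FAS, chr10:88953813-89029605 on the plus strand, overlaps ACTA2 (smooth muscle actin) on the opposite strand and STAMBPL1 on the same strand. ACTA2 rose as well, by 1.72 on the log2 scale in clone 1 (edgeR adjusted p = 1.39e-11), 1.51 in clone 2 (adjusted p = 9.6e-11) and 1.58 in HMC-1.1 (adjusted p = 5.53e-11). Its mean was 4.13 FPKM in HMC-1.2 and 12.5 to 14.8 FPKM in the other groups. STAMBPL1 went the other way, with log2 differences of -0.50, -0.26 and -0.55, none of them past 1.5-fold. The library kit keeps strand, but the strand setting of the counting is not given in the sources used here, so the share of reads that FAS and ACTA2 could exchange was not tested.

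TNFRSF10A and TNFRSF10B, the death receptors for TRAIL, sit 121 kb apart on chromosome 8 (chr8:23190452-23225102 and chr8:23020133-23069031, both minus strand) and did not move alike. TNFRSF10B had 8.34, 8.22 and 8.09 FPKM in HMC-1.2, 12.6, 12.2 and 12.8 in HMC-1.1, 13.8, 14.9 and 15.2 in clone 1, and 9.27, 9.59 and 8.99 in clone 2. Clone 1 was above all other libraries, and clone 2 was only slightly above HMC-1.2. The rise in clone 1 was 0.81 on the log2 scale (SE 0.05, 1.75-fold, edgeR adjusted p = 1.57e-10). HMC-1.1 reached 0.57 (SE 0.05, ratio 1.49, adjusted p = 1.92e-08), just under the required fold (0.61 and called without HMC-1.1 replicate 2), and clone 2 reached 0.12 (SE 0.05, adjusted p = 0.0512). Limma on log2(FPKM + 0.1) gave 0.60 for HMC-1.1 and called it. Tested directly, TNFRSF10B was 1.61-fold higher in clone 1 than in clone 2 (log2 0.69, SE 0.05, adjusted p = 2.01e-09), and without clone 2 replicate 3 the log2 difference was 0.65. A test against 1.5-fold itself (glmTreat) did not call it (adjusted p = 0.0814). By mean CPM the order was clone 1, HMC-1.1, clone 2 and HMC-1.2, and clone 2 and HMC-1.2 were the neighbours whose difference did not pass the adjusted p.

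TNFRSF10A ran from 5.97 to 8.08 FPKM over the 12 libraries, with 528 to 695 counts behind each value. Its mean was 7.56 FPKM in HMC-1.2, 7.06 FPKM in clone 1, 6.41 FPKM in clone 2 and 6.23 FPKM in HMC-1.1. The log2 differences from HMC-1.2 were -0.18 (interval -0.30 to -0.06), -0.20 (interval -0.32 to -0.08) and -0.25 (interval -0.37 to -0.13) in clone 1, clone 2 and HMC-1.1, all short of 1.5-fold. The groups other than HMC-1.2 overlapped in CPM.

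TNFRSF4, a costimulatory receptor of activated T cells, was lower in all 3 groups than in HMC-1.2. It had 4.42, 4.52 and 4.51 FPKM in HMC-1.2, 1.28, 1.7 and 2.65 in HMC-1.1, 2.18, 2.43 and 1.85 in clone 1, and 3.16, 2.9 and 2.62 in clone 2. The HMC-1.2 libraries were above all others. In CPM the groups were fully ordered, with 3.93 to 4.13 in HMC-1.2, 2.2 to 2.72 in clone 2, 1.56 to 2.0 in clone 1 and 1.06 to 1.51 in HMC-1.1, whereas in FPKM HMC-1.1 overlapped both clones. TNFRSF4 fell by 1.17 on the log2 scale in clone 1 (SE 0.16, 2.24-fold lower, edgeR adjusted p = 6.31e-06), by 0.72 in clone 2 (SE 0.15, 1.65-fold lower, adjusted p = 0.000748) and by 1.61 in HMC-1.1 (SE 0.16, 3.06-fold lower, adjusted p = 2.65e-07). Clone 2 stood 1.85-fold above HMC-1.1 (log2 0.89, SE 0.17, adjusted p = 0.000502). Clone 1 lay between them, differing from clone 2 by -0.44 (SE 0.16, adjusted p = 0.031) and from HMC-1.1 by 0.45 (SE 0.17, adjusted p = 0.0856) on the log2 scale, neither past both limits. TNFRSF4 lies at chr1:1211326-1214153 on the minus strand.

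TNFRSF9, another costimulatory receptor of lymphocytes, was low in all groups, with 23 to 63 counts per library. Its FPKM was 0.35, 0.49 and 0.46 in HMC-1.2, 0.16, 0.14 and 0.18 in HMC-1.1, 0.34, 0.22 and 0.19 in clone 1, and 0.3, 0.57 and 0.3 in clone 2. HMC-1.1 was below every other library, while clone 2 and HMC-1.2 overlapped. TNFRSF9 was 1.79-fold lower in HMC-1.1 than in HMC-1.2 (log2 -0.84, SE 0.23, edgeR adjusted p = 0.00528), and 1.98-fold higher in clone 2 than in HMC-1.1 (log2 0.98, SE 0.22, adjusted p = 0.00241). The log2 difference from HMC-1.2 was -0.33 in clone 1 (interval -0.80 to 0.14) and 0.14 in clone 2 (interval -0.31 to 0.59). The clones differed by -0.47 (clone 1 minus clone 2, adjusted p = 0.0771), and by -0.66 without clone 1 replicate 2, which was called (adjusted p = 0.0374). In the order clone 2, HMC-1.2, clone 1 and HMC-1.1, no neighbours passed the test. The gene spans chr1:7915871-7943165 on the minus strand.

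TNFRSF8, the gene of CD30, was near the limit of detection. Its counts were 10, 15 and 5 in HMC-1.2, 2, 7 and 6 in HMC-1.1, 3, 10 and 7 in clone 1, and 7, 1 and 1 in clone 2, which is 0.01 to 0.23 FPKM. The groups overlapped, and the gene was removed by the filter on low counts. With no filter the log2 difference from HMC-1.2 was -1.94 in clone 2 (SE 0.72, edgeR adjusted p = 0.0233), -0.77 in clone 1 (SE 0.64, adjusted p = 0.422) and -1.21 in HMC-1.1 (SE 0.67, adjusted p = 0.171). It also passed the filter, and was called lower in clone 2, when HMC-1.1 replicate 2, HMC-1.2 replicate 3, clone 1 replicate 1 or 3, or clone 2 replicate 1 was left out. With 1 library fewer the filter asks for fewer libraries with enough counts, and the highest count, 15, was in HMC-1.2. These calls are therefore no separate support for a difference. TNFRSF8 (chr1:12063303-12144207, plus strand) ends 22.8 kb before TNFRSF1B begins, with no tested gene starting between them. The nearest tested gene on its other side is MIIP, which was lower than in HMC-1.2 in clone 1, clone 2 and HMC-1.1 (log2 -0.77, -0.65 and -0.96, adjusted p = 5.7e-10, 5.69e-09 and 4.3e-11 in edgeR), while VPS13D, beyond TNFRSF1B, had log2 differences of -0.19, -0.08 and 0.08, none of them called.

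TNFRSF18 had 1 count in each clone 2 library and 0 counts in the other 9 libraries. A count of 0 allows up to 3 counts, counting error only, so no difference was detectable at this depth. It lies at chr1:1203508-1206592 on the minus strand, 4.73 kb from TNFRSF4, and at 40 to 145 counts per library its neighbour TNFRSF4 was clearly detected.

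Between HMC-1.1 and HMC-1.3 clone 1, which carry different KIT variants, 0 of 8 tested receptors changed, where 1.01% of all tested genes were called. DESeq2 also called 0. In edgeR 5 of the 8 had an unadjusted p under 0.05, and 3 of them also an adjusted p under 0.05 at less than 1.5-fold, all higher in clone 1: TNFRSF10B (log2 0.23, adjusted p = 0.00168), TNFRSF1A (log2 0.15, adjusted p = 0.0149) and LTBR (log2 0.09, adjusted p = 0.037). The largest log2 differences were 0.51 for TNFRSF9 (interval 0.02 to 1.00) and 0.45 for TNFRSF4 (interval 0.08 to 0.81), both higher in clone 1, neither past the adjusted p (0.145 and 0.0856), and both with intervals that reach past 1.5-fold. Clone 2 differed from HMC-1.1 in 3 of 8, TNFRSF4, TNFRSF9 and TNFRSF1B, against 8.19% of all tested genes. The clones differed from each other in 2 of 8, TNFRSF1B and TNFRSF10B, against 12.6%.

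Around these receptors, 59 further genes of the same signalling system were followed, and 41 of them could be tested. Of these, 12 changed against HMC-1.2 in clone 1 (8 higher, 4 lower), 8 in clone 2 (3 higher, 5 lower) and 10 in HMC-1.1 (5 higher, 5 lower), where 20%, 16.5% and 17.6% of all tested genes were called in either direction. The share was 29.3% of the 41 for clone 1, 19.5% for clone 2 and 24.4% for HMC-1.1, so that of clone 2 was near the background. Other receptors of the superfamily gave 5 of 11, 4 of 11 and 6 of 11, ligands 4 of 8, 2 of 8 and 2 of 8, and adaptors 3 of 22, 2 of 22 and 2 of 22. The shares of the adaptors, 13.6%, 9.09% and 9.09%, were below those of all genes. Without clone 2 replicate 3 the clone 2 count was 7, BIRC3 being lost. The lists were drawn up with earlier results of these data known, so the counts are a description.

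TNF, the ligand of TNFRSF1A and TNFRSF1B, was far lower in all 3 groups than in HMC-1.2, by more than either receptor. It had 85.4, 88.9 and 86.5 FPKM in HMC-1.2, 1.2, 1.24 and 1.13 in HMC-1.1, 0.66, 0.99 and 0.88 in clone 1, and 0.34, 0.02 and 0.03 in clone 2. Clone 2 held only 17, 1 and 2 counts, against 3666 to 4544 counts in HMC-1.2, and was itself below clone 1 (log2 difference of clone 1 from clone 2 2.78, SE 0.43, edgeR adjusted p = 4.11e-05). The log2 difference from HMC-1.2 was -6.74 in clone 1 (SE 0.14, edgeR adjusted p = 1.94e-16), -9.52 in clone 2 (SE 0.18, adjusted p = 7.19e-17) and -6.24 in HMC-1.1 (SE 0.13, adjusted p = 2.2e-16). In clone 2 most of these counts came from replicate 1, and without it the log2 difference was -11.65 from HMC-1.2 and 4.92 between the clones, each resting on 1 and 2 counts in clone 2.

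LTB, the lymphotoxin subunit that anchors the LTBR ligand in the membrane, was lowest in HMC-1.2, where TNF was highest, while its receptor hardly varied. LTB had 1.5, 1.75 and 3.05 FPKM in HMC-1.2, 18.5, 20.7 and 18.5 in HMC-1.1, 16.2, 16.0 and 15.1 in clone 1, and 12.1, 12.8 and 10.6 in clone 2. Every HMC-1.2 library was below every other library. The rise was 2.86 on the log2 scale in clone 1 (SE 0.16, 7.27-fold, edgeR adjusted p = 1.44e-10), 2.44 in clone 2 (SE 0.17, 5.43-fold, adjusted p = 1.86e-09) and 3.13 in HMC-1.1 (SE 0.16, 8.77-fold, adjusted p = 4.14e-11). LTA, the soluble subunit, had 7 to 16 counts per library and was not called in any of the 3 comparisons.

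TNFSF10 encodes TRAIL, the ligand of TNFRSF10A and TNFRSF10B, and was abundant throughout at 71.5 to 111 FPKM. Its log2 differences from HMC-1.2 were -0.44 in clone 1, -0.28 for clone 2 and -0.58 for HMC-1.1, the last a ratio of 1.49 that is just short of the fold for a call. TNFRSF10D, a decoy receptor for TRAIL that lies between the TNFRSF10 death receptors, had 87, 61 and 78 counts in HMC-1.2, 1 in each HMC-1.1 library, 0 in each clone 1 library and 0, 0 and 5 in clone 2. Against a floor of 3 counts per library it was at least 28.7-fold lower in clone 1 (edgeR adjusted p = 1.08e-07), where the floor covers counting error only. With 3 counts in all, HMC-1.1 was lower by a ratio of 87, with an exact 95% counting interval of 29.4 to 425 (edgeR adjusted p = 2.86e-07). The 5 counts in clone 2 were all in the library that stood apart. TNFRSF10C, the other TRAIL decoy, was higher in clone 1 (log2 0.90, SE 0.32, adjusted p = 0.0234) and HMC-1.1 (log2 0.87, SE 0.32, adjusted p = 0.0309), and had a log2 difference of -0.43 in clone 2 (interval -1.19 to 0.34). The call in clone 1 was lost without HMC-1.2 replicate 1 or clone 1 replicate 2, and that in HMC-1.1 without any of the HMC-1.2 libraries or without HMC-1.1 replicate 3. DESeq2 made neither call.

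The ligands of the remaining receptors were mostly absent. FASLG and TNFSF8, the ligands of FAS and CD30, had 0 counts in all 12 libraries, as had CD40LG, TNFSF11 and TNFSF15, and TNFSF18, the ligand of TNFRSF18, had at most 3. TNFSF4, the ligand of TNFRSF4, had 8 to 13 counts in HMC-1.2 and 22 to 25 in clone 1, a 2.04-fold rise (log2 1.03, SE 0.34, edgeR adjusted p = 0.0135), and was not called in clone 2 or HMC-1.1. The call was lost without HMC-1.2 replicate 1 and was not made by DESeq2. TNFSF9, the ligand of TNFRSF9, was present at 26 to 36.7 FPKM in all libraries, far above its receptor on this length-scaled measure. Its log2 differences from HMC-1.2 were 0.37 in clone 1, 0.16 for clone 2 and 0.16 for HMC-1.1, none of them called.

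**Figure D3:**
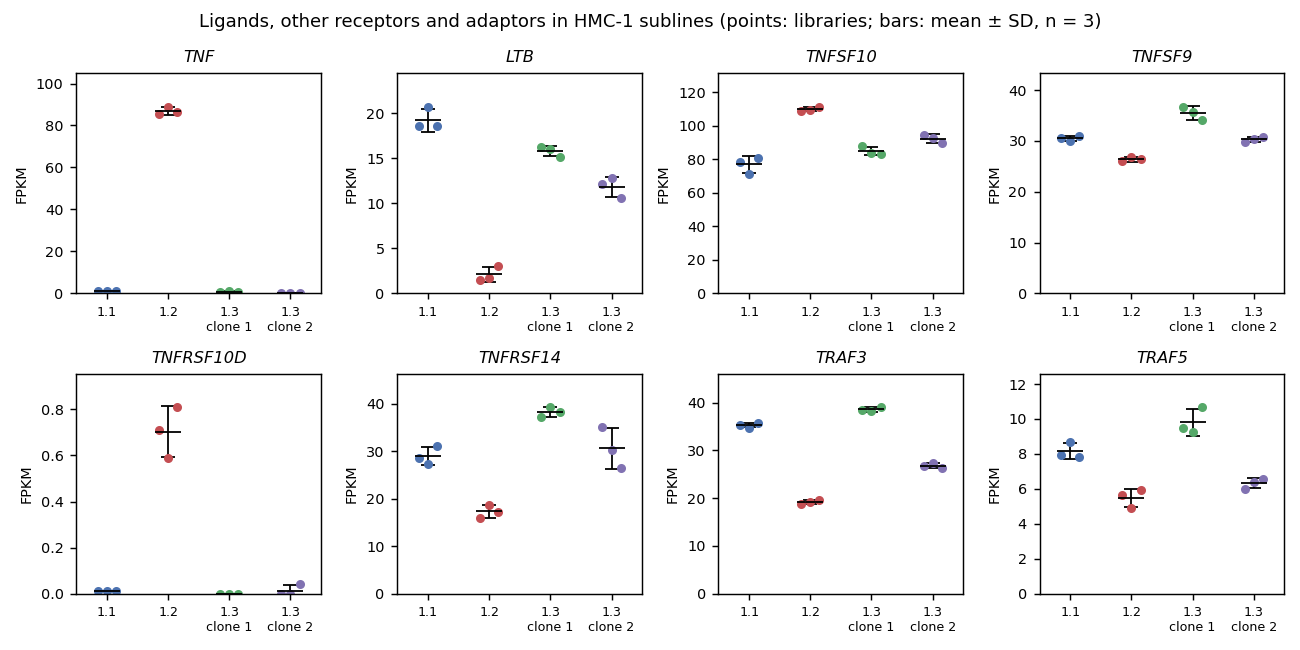
FPKM (vertical axes, linear, each with its own range from 0) of 4 ligands, 2 other receptors and 2 TRAF adaptors in the 4 groups, with libraries as points and the mean ± SD as bars (n = 3). TNF stands at 85.4 to 88.9 in HMC-1.2 and at most 1.24 elsewhere, LTB is lowest in HMC-1.2, and TNFRSF10D is near 0 outside HMC-1.2.

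Of the other receptors, TNFRSF14 (HVEM), which binds LIGHT and lymphotoxin, rose in clone 1 by 0.96 (SE 0.05, edgeR adjusted p = 1.19e-10), in clone 2 by 0.74 (SE 0.05, adjusted p = 5.27e-09) and in HMC-1.1 by 0.64 (SE 0.06, adjusted p = 3.65e-08) on the log2 scale, from 16.0 to 18.7 FPKM in HMC-1.2 to 26.5 to 39.3 FPKM elsewhere. The TNFRSF14 call in HMC-1.1 was lost without HMC-1.2 replicate 1. TNFRSF19 (TROY) fell by 1.46 (SE 0.15, adjusted p = 2.32e-07), 0.85 (SE 0.14, adjusted p = 9.39e-05) and 1.74 (SE 0.15, adjusted p = 4.48e-08) in the same order of groups, from 1.09 to 1.26 FPKM in HMC-1.2. TNF, LTB, TNFRSF14, TNFRSF19 and TNFRSF10D were the further genes that changed in the same direction in both clones. CD40 (8.07 to 10.3 FPKM) and RELT (8.06 to 12.4 FPKM) were expressed at levels like those of TNFRSF10A in FPKM. TNFRSF13B and TNFRSF11B had 0 counts in every library.

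Among the adaptors, TRAF3, which restrains the non-canonical NF-κB pathway, separated the clones. It had 18.8, 19.2 and 19.6 FPKM in HMC-1.2, 35.4, 34.7 and 35.7 in HMC-1.1, 38.6, 38.2 and 39.1 in clone 1, and 26.8, 27.4 and 26.2 in clone 2. The groups did not overlap. Against HMC-1.2, TRAF3 was 1.89-fold higher in clone 1 (log2 0.92, SE 0.04, edgeR adjusted p = 4.21e-12) and 1.76-fold higher in HMC-1.1 (log2 0.82, SE 0.04, adjusted p = 2.31e-11), with a ratio of 1.2 in clone 2. It was 1.57-fold higher in clone 1 than in clone 2 (log2 0.65, SE 0.04, adjusted p = 7.6e-10). Neither glmTreat nor limma on FPKM, with a pseudocount of 1 or 0.1, called TRAF3 between the clones. TRAF5 was likewise higher in clone 1 than in HMC-1.2 (log2 0.84, SE 0.05, edgeR adjusted p = 3.74e-10) and than in clone 2 (log2 0.61, SE 0.05, adjusted p = 2.61e-08), the latter falling to 0.56, under the fold for a call, without clone 1 replicate 3. Between the clones, glmTreat and limma on log2(FPKM + 1) did not call TRAF5.

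BIRC3 (cIAP2), at 20 to 87 counts, was called lower in clone 1 (log2 -0.81, SE 0.28, edgeR adjusted p = 0.0206) and higher in clone 2 (log2 0.67, SE 0.25, adjusted p = 0.0366). The first call was lost without HMC-1.2 replicate 2 or 3 or clone 1 replicate 1 or 2, and the second without HMC-1.2 replicate 1 or clone 2 replicate 2 or 3. DESeq2 made the first call and not the second. Clone 1 was lower than clone 2 in a direct test (log2 -1.48, SE 0.27, adjusted p = 0.000185). The death-receptor genes FADD (21.9 to 29.9 FPKM), CASP8 (23.8 to 33.9 FPKM) and CFLAR (55.2 to 69.6 FPKM), which encode the adaptor, the initiator caspase and its inhibitor, were well expressed in all groups. None of these 3 was called against HMC-1.2.

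Genes whose levels tracked TNFRSF4 most closely were sought among 13116 genes, by the root mean square difference of log2 CPM after each gene was centred on its own mean over the 12 libraries. The nearest were TNFRSF19 at 0.14, TMEM173 (STING) at 0.15 and EGR1, an immediate early transcription factor, at 0.17, where TNFRSF4 itself deviated from its mean by 0.60. The nearest of all was thus a further receptor of the same superfamily. EGR1 averaged 138 CPM in HMC-1.2, 97.4 CPM in clone 2, 63.6 CPM in clone 1 and 56.8 CPM for HMC-1.1, the order of TNFRSF4.

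For TNFRSF9 the nearest were SERPINB8 at 0.20, the death receptor TNFRSF21 at 0.20 and HLA-F at 0.22. TNFRSF9 itself deviated from its mean by only 0.39, so these matches were loose. TNFRSF21 was 1.95-fold higher in clone 2 than in HMC-1.1 (log2 0.96, SE 0.10, edgeR adjusted p = 1.37e-06) and was not called in any comparison with HMC-1.2. For FAS the nearest were the transporter gene SLCO3A1, the interferon-induced IFIT3 and ENAH, an actin regulator, all at 0.07, where FAS itself deviated by 0.36. IFIT3 averaged 45.7 CPM in HMC-1.2, 67.8 CPM in clone 1, 80.5 CPM in clone 2 and 69.8 CPM for HMC-1.1. TNFRSF8 had too few counts for such a search.

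Of the 14 tested genes that lie next to one of the 10 receptors on the chromosome and are not among them, 5 changed against HMC-1.2 for clone 1, 4 for clone 2 and 3 for HMC-1.1. Over all tested genes, 20%, 16.5% and 17.6% were called in these comparisons, and the counts of neighbours were not tested against these shares. MIIP, ACTA2 and TNFRSF10D, described above, changed in all 3 comparisons. C1orf159 and SDF4 on either side of TNFRSF4 had log2 differences of -0.30 and -0.37 in clone 1, CD9 beside TNFRSF1A 0.22, LIPA beside FAS 0.05, PARK7 beside TNFRSF9 -0.12 and RHOBTB2 beside TNFRSF10B -0.34, and none of these was called in clone 1, clone 2 or HMC-1.1. The genes next to LTBR and to TNFRSF10B on their other side carry no name beyond a clone identifier and were not called either. PER3, a circadian clock gene on the other side of TNFRSF9, was higher in clone 1 (log2 0.78, edgeR adjusted p = 9.31e-09), while TNFRSF9 was not called there. RP11-1149O23.3 beside TNFRSF10A was higher in clone 1 (log2 0.91, edgeR adjusted p = 6.91e-08) and clone 2 (log2 0.66, adjusted p = 5.46e-06), while TNFRSF10A was called in neither.

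**Figure D4:**
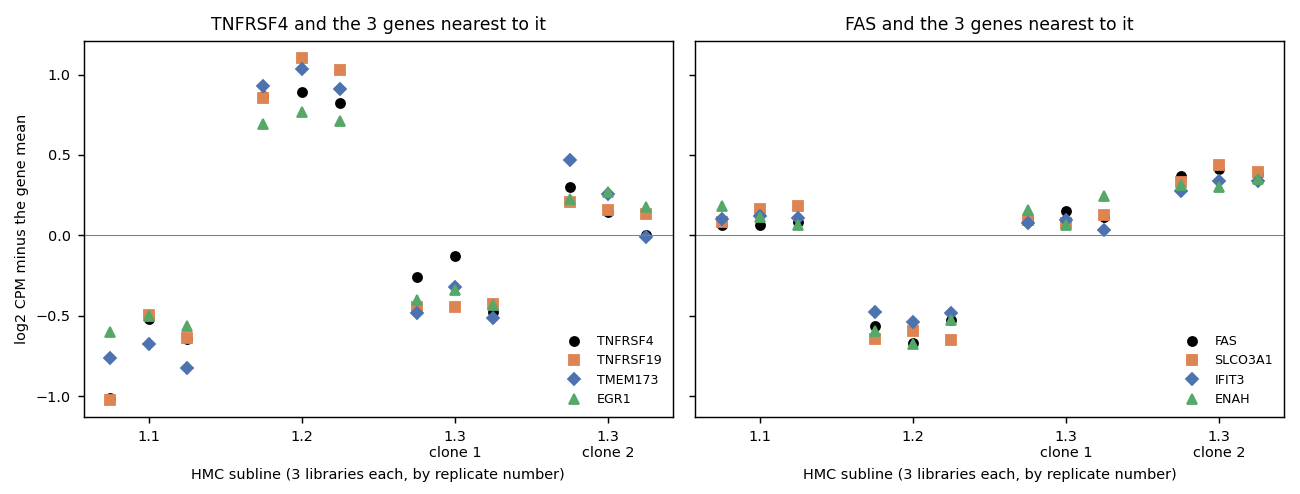
Log2 CPM minus the mean of each gene over 12 libraries (vertical axis) for TNFRSF4 (left) and FAS (right), each with the 3 genes nearest to it, and 3 libraries per group along the horizontal axis. The genes on the left are highest in HMC-1.2 and lowest in HMC-1.1, and those on the right are lowest in HMC-1.2 and highest in HMC-1.3 clone 2.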

How the data were processed

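Counts and FPKM of 12 libraries in 4 groups, taken from the labels, were used. Per the labels' processing notes, the authors used Cutadapt 2.10 on the reads, STAR 2.5.3 as the aligner (hg38), Picard and RSEM 1.3.0, which gave the deposited expected counts per gene, not normalized. The deposited FPKM values give fragments per length of transcript and depth of library, and serve for levels between genes. Reads were not used here, so the KIT genotype of the libraries was not checked. Each of the 12 count columns matched the FPKM column of its own label, and 7.39% of the counts were not whole. A changed isoform length could move counts and FPKM differently, and reads shared by overlapping genes could move both.

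Counts were rounded and tested with edgeR 4.0.16 (R 4.3.3), using the quasi-likelihood test, TMM scaling (factors 0.974 to 1.02), filterByExpr, 4 groups and no covariate. P-values were adjusted by the Benjamini-Hochberg method over 15944 genes in each comparison. The 12 libraries held 29225900 to 43181402 counts, and their 3 replicates per group limit the precision. All 10 receptors are described, with each further gene of the lists that changed the same way in both HMC-1.3 clones at a mean of at least 1 FPKM or that pairs with a receptor, the 3 genes nearest in profile, and neighbours. Further genes of the lists (TNFRSF13B, TNFRSF11B, CD40, RELT, TRAF3, TRAF5, BIRC3, FADD, CASP8, CFLAR, CD40LG, TNFSF11 and TNFSF15), STAMBPL1 and the motif letters were chosen after their values were seen. The receptors and lists were chosen with earlier results of these data known. Positions are from Gencode 44 (GRCh38), which held 99.0% of the identifiers. The test was tested on simulated data with known changes. Alternatives were DESeq2 1.42.0, other filters and scaling, a replicate block, limma 3.58.1 on FPKM and leaving out each library, which for single pathway genes was added after the data were seen.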

Additional observations from a re-analysis of the deposited data

Results flagged for a closer look

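The HMC-1.3 clones carry the same KIT variant. In a direct test of clone 1 against clone 2, 2 of the 8 tested receptors differed, where 12.6% of all tested genes were called. TNFRSF1B was higher in clone 1 by 1.14 on the log2 scale, with 37, 38 and 42 counts in clone 1 and 12, 17 and 28 in clone 2. TNFRSF10B was higher in clone 1 by 0.69 on the log2 scale, with 1581, 1643 and 1601 counts in clone 1 and 963, 1095.3 and 1142 in clone 2. In both genes all clone 1 libraries were above all clone 2 libraries in CPM. A test against 1.5-fold itself (glmTreat) called neither gene (adjusted p = 0.0887 and 0.0814).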

How the results depend on the processing

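Over 22 alternatives, the log2 differences of the 8 tested receptors kept their direction and their side of the limits in 1018 instances, gained a call in 8, lost one in 17 and turned in 10. All that turned were small. LTBR in HMC-1.3 clone 2 against HMC-1.2 gave 0 with no filter, 0.0374 and 0.0378 in limma with a pseudocount of 1 and 0.1 and -0.0185 to 0.01 when a library was left out. TNFRSF9 in that comparison gave -0.0488 and -0.157 in limma on log2(FPKM + 1) and log2(FPKM + 0.1). TNFRSF1B in clone 1 against HMC-1.1 gave -0.0063 in limma on log2(FPKM + 1), and TNFRSF10A between the clones -0.0251 to 0.0355 when a library was left out.

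With glmTreat, which tests against 1.5-fold, the further pathway genes called against HMC-1.2 were 7 for clone 1, 5 for clone 2 and 5 for HMC-1.1, and the receptors 3 for HMC-1.1 with HMC-1.2, 0 in clone 2 against HMC-1.1 and 0 between the clones. With limma on log2(FPKM + 1), which understates changes of low genes, they were 6, 4 and 6, and 3, 0 and 1, and 1 between the clones with a pseudocount of 0.1. TNFRSF4 in clone 2 (adjusted p = 0.46), FAS and TNFRSF9 in HMC-1.1 (adjusted p = 0.234 and 0.335), TNFRSF4, TNFRSF9 and TNFRSF1B between clone 2 and HMC-1.1 (adjusted p = 0.251, 0.267 and 0.543) and TNFRSF1B and TNFRSF10B between the clones (adjusted p = 0.0887 and 0.0814) lost their calls in glmTreat. Receptors called in clone 2 against HMC-1.2 ran from 3 to 5 when a library was left out, with 5 without HMC-1.2 replicate 3, where TNFRSF1A and TNFRSF8 were added. Over all genes, clone 1 against HMC-1.1 gave 161 calls, and 60 in DESeq2, 9 in glmTreat, 63 in limma on log2(FPKM + 1) and 107 without HMC-1.3 clone 1 replicate 2. Against HMC-1.2, glmTreat gave 1932, 1612 and 1618 and limma 1930, 1478 and 1537 in place of 3193, 2630 and 2803 for clone 1, clone 2 and HMC-1.1. For clone 2 against HMC-1.1 they gave 552 and 570 in place of 1306, and between the clones 837 and 987 in place of 2013. The cause was not tested, beyond what each test itself requires.

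With a replicate block, 5, 3, 5, 0, 3 and 2 receptors were called in the 6 comparisons and 12, 8 and 10 pathway genes, as without it. Deviations of libraries with the same number correlated at -0.04 to 0.10 (median 0.026) and those of other pairs at -0.11 to 0.07 (median -0.012). These ranges overlap, which cannot exclude a weak pairing by number, and this was not tested. Depth limits TNFRSF8 and TNFRSF18, and low counts limit TNF, TNFRSF1B and TNFRSF10D in clone 2. The 3 libraries labelled as resent were spread over 3 groups, and a term for them changed no call of the 8 tested receptors. Among the pathway genes it removed TNFRSF10C and added TNFRSF21 and TRAF5 for HMC-1.1 relative to HMC-1.2.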
